A study of Mus musculus with 8 samples.

Results

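The 10 genes described here are epithelial genes of the basal and squamous programme: the keratins Krt5, Krt14, Krt15, Krt17, Krt6a, Krt4 and Krt13, the transcription factor Trp63, the cornified envelope gene Sprr1a and the desmosomal cadherin gene Dsg3. They were taken by gene symbol, 10 of the 20863 genes named on the array, and were read by 16 of its 31465 named spots. Total RNA from whole lung was measured in 4 wild-type mice (WT) and 4 mice overexpressing Fra-2 (Fra-2 TG), all of the C57BL/6 background and 8 weeks old, with 1 single-colour Agilent array per mouse. Fra-2, the product of Fosl2, is an AP-1 transcription factor. The sources used here do not name the promoter of the transgene, nor say whether the 4 TG mice come from 1 founder line. Levels are log2 of the deposited normalised intensity. They can be compared between mice for 1 spot, not between spots.

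Basal cells are the stem cells of stratified and pseudostratified epithelia and sit on the basement membrane. Their cytoskeleton is built from a type I keratin, Krt14, paired with a type II keratin, Krt5, and their identity depends on p63, the product of Trp63. When such cells stratify they change to other keratin pairs, tie themselves together with desmosomes and finally lay down a cornified envelope with small proline-rich proteins. In the mouse respiratory tract basal cells line the trachea and main bronchi, and the small airways and alveoli of a healthy lung hold few or none.

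In TG lung Krt14 was higher in every mouse, while the other 9 genes did not pass the test. Dim signals were common among the 10 genes: the brightest spots of 4 of them (Krt17, Krt6a, Krt4 and Dsg3) lay under the median of all spots, 4.74 on the log2 scale, on all 8 arrays. That median serves as the floor for dim signals. Only Trp63 and Krt15 lay above it on all 8 arrays, and the other 4 genes lay on both sides of it. The defining basal markers were therefore not readily measured as a set in these lungs, and the genes are treated one by one rather than as a cell type. In whole lung, more cells of a type and more RNA per cell cannot be told apart.

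Mouse 4 of each group stood a little apart, with a mean correlation to the other arrays of its group of 0.966 (WT) and 0.971 (TG) against 0.973 to 0.975 for the other 6 mice. Fosl2 was read by 2 spots that went opposite ways. The brighter had overlapping groups, 10.12 to 11.01 in WT and 9.38 to 10.63 in TG, and differed by -0.75 on the log2 scale (limma adjusted p = 0.537 over all spots). The dimmer was higher in every TG mouse, at 3.44 to 5.58 in WT and 6.35 to 7.85 in TG, at least 4.06-fold against the floor described above, without passing (limma adjusted p = 0.153 over all spots). Which of the 2 spots also reads the transgene is not known here.

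Krt14, the type I keratin of basal keratinocytes and airway basal cells, had log2 levels of 4.71, 4.91, 5.18 and 4.34 in WT mice 1 to 4 and of 8.22, 7.10, 7.17 and 7.82 in TG mice 1 to 4. The WT values straddled the floor, with 2 of 4 under it, and the lowest TG value lay well above the highest WT value. The group means were 4.79 ± 0.35 in WT and 7.58 ± 0.54 in TG (SD, n = 4 each). Because the WT group reaches the floor, the rise is a bound: at least 6.44-fold, from the TG mean over the WT mean with each WT value raised to the floor. This bound allows for the floor, not for the spread between mice. The fitted log2 difference was 2.79 (SE 0.29, 95% interval 2.12 to 3.46, limma adjusted p = 0.0105 over all genes). A two-sided exact permutation test gave p = 0.0286, which is the lowest value possible with 4 mice in each group.

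Over all genes, 45 passed an adjusted p of 0.05 (0.216% of those tested), 26 of them higher in TG lung (0.125%) and 19 lower (0.0911%). Among these 26, Krt14 had rank 6 by size of the fitted rise. The list was drawn up with that result known, so the count of 1 of 10 higher and 0 of 10 lower says nothing about the list. Krt14 was read by 1 spot only. Its adjusted p ran from 0.0265 to 0.05001 when 1 mouse was left out, and WT mouse 2 was the one whose removal lost the call. With both mice numbered 4 left out the fitted difference was 2.56 and the adjusted p 0.0853.

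**Figure D1:**
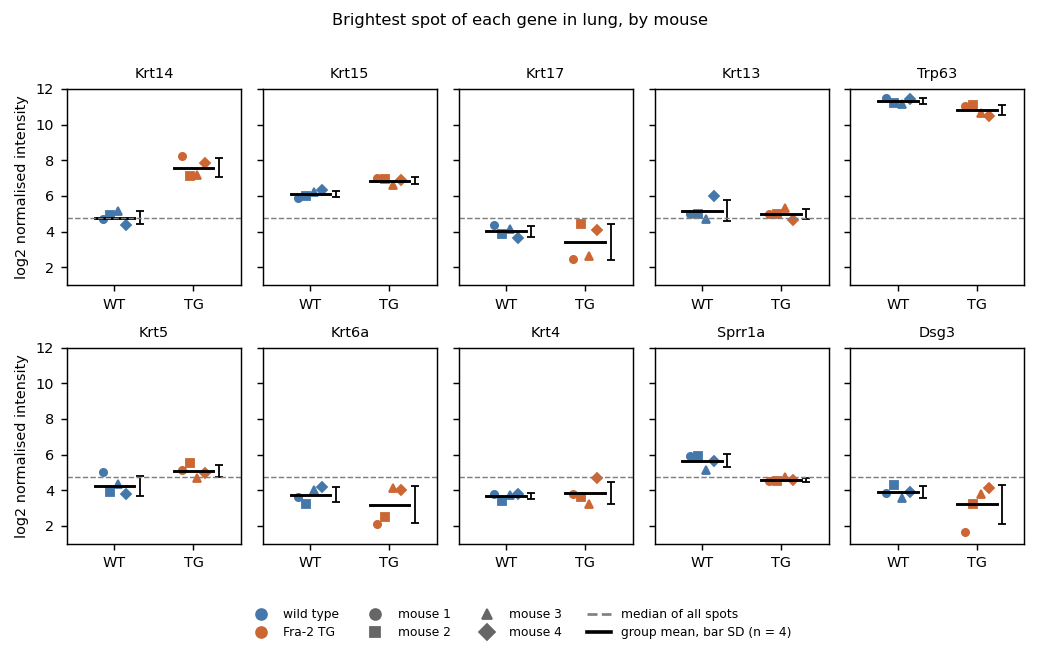
Log2 normalised intensity (y axis) of the brightest spot of each of the 10 genes in 4 wild-type (WT, blue) and 4 Fra-2 transgenic (TG, orange) lungs, with a marker shape per mouse number, the group mean and a bar for 1 SD; the dashed line is the median of all spots, 4.74. The TG values of Krt14 run from 7.10 to 8.22 against 4.34 to 5.18 in WT, and the spots of Krt17, Krt6a, Krt4 and Dsg3 stay under the line in all 8 mice.

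Krt15, a type I keratin of quiescent basal cells, was the next member that was clearly measured. Its log2 levels were 5.90, 5.99, 6.21 and 6.30 in WT mice 1 to 4 and 7.00, 6.95, 6.60 and 6.86 in TG mice 1 to 4. All 4 TG values lay above all 4 WT values. The means of 6.10 ± 0.19 and 6.85 ± 0.18 (SD, n = 4 each) give a ratio of 1.68-fold and a log2 difference of 0.75 (SE 0.15, 95% interval 0.41 to 1.09). The limma adjusted p was 0.150 over all genes, above the threshold of 0.05, so Krt15 is not called.

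Krt17, a type I keratin of basal cells under stress and of wound edges, lay under the floor in both groups. Its levels were 3.66 to 4.36 in WT, and in TG mice 1 to 4 they were 2.47, 4.43, 2.61 and 4.11, which spread over both sides of the WT range. No fold is given, since both means lie under the floor (limma adjusted p = 0.731).

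Krt5, the type II keratin that forms filaments with Krt14, was read by 2 spots. The brighter had levels of 5.02, 3.88, 4.33 and 3.80 in WT mice 1 to 4 and of 5.14, 5.52, 4.67 and 4.98 in TG mice 1 to 4. WT mouse 1 lay within the TG range, so the groups overlapped, and only 1 of 4 WT and 3 of 4 TG values lay above the floor. The fitted log2 difference was 0.82 (SE 0.30, 95% interval 0.13 to 1.50, limma adjusted p = 0.468), and the bound was at least 1.21-fold. The dimmer spot lay under the floor in all 8 mice and differed by 0.68 (SE 0.29, limma adjusted p = 0.546 over all spots). Both Krt5 spots thus had a positive difference, and neither passed.

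Krt14 was also set against other keratins within each mouse, as its level minus theirs with every value first raised to the floor. This is a description with no test, since the rise of Krt14 was known and enters every pair. The Krt14 level minus the Krt15 level was -1.21 ± 0.24 in WT and 0.72 ± 0.47 in TG (SD, n = 4 each), a change of 1.94. Minus the Krt16 level it was -1.27 ± 0.39 in WT and 1.32 ± 0.45 in TG, a change of 2.59. Krt15 and Krt16 were above the floor in all 8 mice. Against Krt5, above the floor in 4 of 8 mice, the change was 2.40. Krt17 lay under the floor in all 8 mice, so the change of 2.69 against it is that of Krt14 over the floor and holds nothing of Krt17.

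Krt6a, a type II keratin induced in injured and hyperproliferative epithelium, lay under the floor in all 8 mice. It ranged from 3.20 to 4.20 in WT, and TG mice 1 and 2 lay lowest of all, at 2.14 and 2.48, while TG mice 3 and 4 stood at 4.13 and 4.00. Its limma adjusted p was 0.760.

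Krt4 and Krt13 form the keratin pair of the suprabasal layers of mucosal epithelium such as the oesophagus. Krt4 lay under the floor throughout, at 3.39 to 3.80 in WT and 3.24 to 4.69 in TG, with TG mouse 4 the highest (limma adjusted p = 0.900). Krt13 was read by 2 spots. The brighter stood at 4.99, 5.01, 4.69 and 6.00 in WT mice 1 to 4 and at 4.96, 4.99, 5.32 and 4.64 in TG mice 1 to 4. The groups overlapped, with WT mouse 4 the highest of all, and the fitted difference was -0.19 (SE 0.29, 95% interval -0.85 to 0.47, limma adjusted p = 0.872). Without WT mouse 4 it was 0.082. The dimmer Krt13 spot lay under the floor in all 8 mice. Neither member of the mucosal pair passed, and the intervals leave room for changes of either sign.

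**Figure D2:**
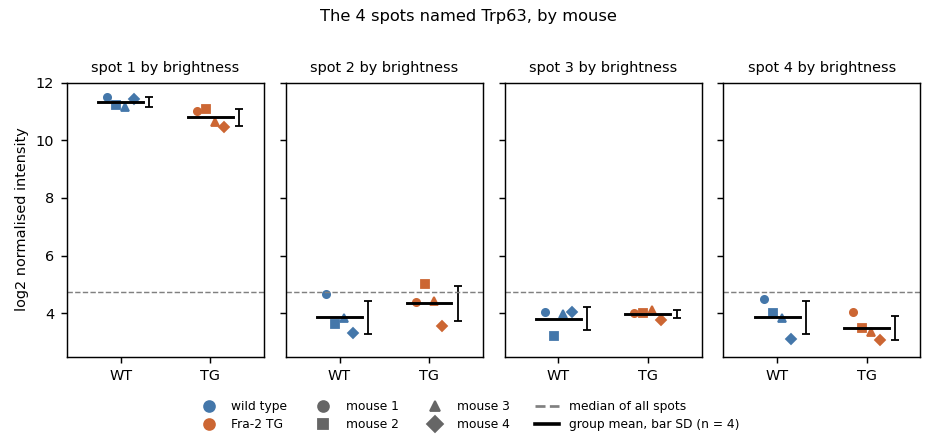
Log2 normalised intensity (y axis) of each of the 4 spots named Trp63 in wild-type (WT) and Fra-2 transgenic (TG) lungs, ordered by brightness, with mice, means, SD bars and the median of all spots drawn as in the plot of the 10 genes. The brightest spot runs from 10.47 to 11.50, and the other 3 stay near or under the line.

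Trp63 encodes p63, which is needed to form and keep basal cells. Its 4 spots did not tell the same story. The brightest had levels of 11.50, 11.22, 11.14 and 11.44 in WT mice 1 to 4 and of 11.03, 11.07, 10.65 and 10.47 in TG mice 1 to 4, so every TG value lay under every WT value. The ratio was 1.43-fold lower in TG, a log2 difference of -0.52 (SE 0.17, 95% interval -0.92 to -0.12), which did not pass (limma adjusted p = 0.425).

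The other 3 Trp63 spots lay under the floor on all 8 arrays, apart from TG mouse 2 on the second spot, at 5.02. Their log2 differences were 0.49, 0.16 and -0.36, and the limma adjusted p over all spots was 0.731 to 0.853. In the annotation the brightest spot is assigned to another RefSeq transcript of Trp63 than the second, and the remaining 2 to cDNA records. A brightest spot above the floor on all 8 arrays, with every other spot of the gene under it on at least 7, was found for 8 of the 561 genes that had 4 or more spots (1.43%). Among all 6086 genes with several spots it was found for 553 (9.09%). The share thus depends on the number of spots and does not show what this spot reads. Whether the brightest spot reads p63 messenger RNA was not tested, and it is no sound basis for a statement on basal cells.

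Sprr1a encodes a small proline-rich protein that is cross-linked into the cornified envelope of squamous cells. It stood at 5.92, 5.92, 5.16 and 5.64 in WT mice 1 to 4, above the floor in each, and at 4.51, 4.51, 4.72 and 4.58 in TG mice 1 to 4, just under the floor in each. Every TG value lay under every WT value. The means were 5.66 ± 0.36 and 4.58 ± 0.10 (SD, n = 4 each), at least 1.90-fold lower in TG. The fitted log2 difference of -1.08 (SE 0.19, 95% interval -1.51 to -0.65) had a limma adjusted p of 0.0984 and is not called. Its adjusted p passed under 2 of 19 alternatives, at 0.0384 without WT mouse 3 and at 0.0434 with only the genes above the floor on at least 4 arrays tested, and ran up to 0.328 under the other 17. Sprr1a enters that filter by its 4 WT values alone, so the filter is not blind to the difference and the pass is no support.

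Because Sprr1a is known as a gene with AP-1 sites, and Krt5 is the partner of Krt14, the 250 bases before their starts are shown as RefSeq gives them in build GRCm38.p6, 5′ to 3′ on the minus strand, with capitals for the motifs found. Such windows were matched for 3 of the 10 genes (Krt5, Krt13 and Sprr1a). A chromosome was left out of this match, so a window of another of the 10 genes may be missing. The Sprr1a window is chr3:92485882-92486131 and the Krt5 window is chr15:101712906-101713155.
Sprr1a: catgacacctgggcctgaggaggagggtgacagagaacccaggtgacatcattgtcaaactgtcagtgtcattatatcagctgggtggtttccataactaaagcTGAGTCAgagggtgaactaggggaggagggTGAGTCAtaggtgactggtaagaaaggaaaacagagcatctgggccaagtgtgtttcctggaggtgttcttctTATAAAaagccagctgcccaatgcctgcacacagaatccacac
Krt5: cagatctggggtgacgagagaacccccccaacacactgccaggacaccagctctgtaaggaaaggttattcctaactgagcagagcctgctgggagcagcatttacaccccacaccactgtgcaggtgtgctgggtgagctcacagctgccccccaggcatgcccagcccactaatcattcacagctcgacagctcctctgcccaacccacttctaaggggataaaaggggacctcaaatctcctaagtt

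The letters searched were the AP-1 site TGAGTCA or TGACTCA, which are each other's reverse complement and so cover both strands, the CRE site TGACGTCA, which is its own reverse complement, and the TATA box TATAAA on the gene's strand. None of these overlaps another. The Sprr1a window holds 2 AP-1 sites, whose first bases lie 146 and 116 bases before the start, and a TATA box at 43 bases. The Krt5 and Krt13 windows hold none of the 3 motifs. Of 19827 such windows in the table, with no chromosome left out, 4.86% hold an AP-1 site, 1.43% a CRE site and 9.39% this TATA box. These letters describe the windows only.

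Dsg3 encodes desmoglein 3, a cadherin of the desmosomes of basal and lower suprabasal cells. Both of its spots lay under the floor in all 8 mice. The brighter ranged from 3.55 to 4.32 in WT and from 1.66 to 4.13 in TG, where TG mouse 1 was lowest, and its limma adjusted p was 0.714. The other spot differed by -0.15 (SE 0.27).

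Over the 10 genes, 4 had groups that did not overlap, Krt14 and Krt15 higher in TG, Trp63 and Sprr1a lower. Over all genes tested, the share without overlap was 6.53%, made up of 3.99% higher and 2.54% lower in TG. At an unadjusted p under 0.05 (limma), 3 of the 10 were higher (Krt14, Krt15 and Krt5) and 2 lower (Trp63 and Sprr1a), where 9.15% of all genes passed, 5.33% higher and 3.82% lower. The 10 differences had a median of -0.36, against 0.014 over all genes, with 4 positive and 6 negative. Krt17, Krt6a, Krt4 and Dsg3 lay under the floor on all 8 arrays, so their signs cannot be read. The 5 genes with a mean above the floor had a median difference of -0.19, again with mixed signs. Without both mice numbered 4, the same number of the 10, 4, had groups that did not overlap, where 17.7% of all genes did.

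**Figure D3:**
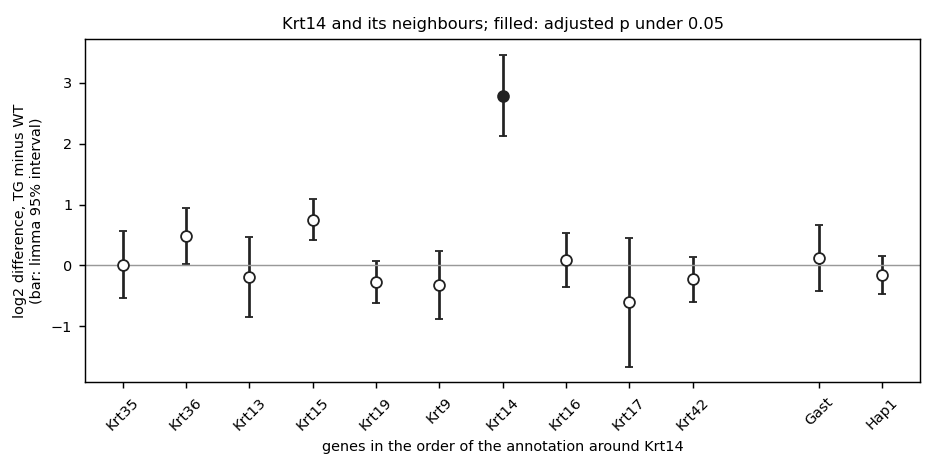
Log2 difference, Fra-2 TG minus wild type, with the limma 95% interval (y axis), for Krt14 and the measured genes among the 6 nearest protein-coding genes on each side, in the order of the annotation (x axis); the symbol is filled where the adjusted p is under 0.05. Krt14 stands at 2.79 and is the only filled symbol, and the next highest, Krt15, stands at 0.75.

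Krt14 lies in the cluster of type I keratin genes, and its neighbours there were looked at after its own values were seen. Of the 6 protein-coding genes on each side, 11 of 12 were measured. None of the 11 passed (limma; Krt15 and Krt36 had an unadjusted p under 0.05). Krt9 and Krt16 flank Krt14 directly. Krt16, a keratin of stressed epidermis, was above the floor in all 8 mice, at 5.66 to 6.56 in WT and 6.15 to 6.38 in TG, with a difference of 0.095 (SE 0.19, 95% interval -0.35 to 0.54). This difference was -0.072 without WT mouse 4 and -0.038 with array weights. Krt9, a keratin of palm and sole skin, lay under the floor in all 8 mice. Krt19, a keratin of simple and airway epithelium, differed by -0.28 (SE 0.15), and Krt42 by -0.23 (SE 0.16). The rise was thus measured at Krt14 and at no directly flanking gene. Keratins 14, 16 and 17 are similar in sequence, and whether their spots cross-read was not tested.

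The genes most like Krt14 in pattern were found as those with the smallest root mean square distance from it over the 8 mice, after each gene was centred on its own mean, among the 14307 genes outside the list with a mean above the floor. They were Upp1 (distance 0.55 on the log2 scale), a uridine phosphorylase, Ccl9 (0.63), a chemokine, Prss12 (0.64), a serine protease, Nsg2 (0.68), a neuronal vesicle protein, and Stac2 (0.68). Upp1 and Prss12 passed the test (limma adjusted p = 0.00655 and 0.00709), while Ccl9, Nsg2 and Stac2 did not (0.114, 0.0675 and 0.253). No keratin or desmosome gene was among the 5. The distance counts the size of a change as well as its pattern, so a gene with a much smaller rise cannot lie near Krt14. Within the list, Krt15 and Krt5 lay nearest to Krt14, at 1.09 and 1.13, and Sprr1a and Dsg3 farthest, at 2.00 and 1.99. Among all 20862 other genes, Krt15 had rank 330 and Krt5 rank 441. The choice of this measure fixes that such genes rise, so their agreement is a description of the 8 mice.

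**Figure D4:**
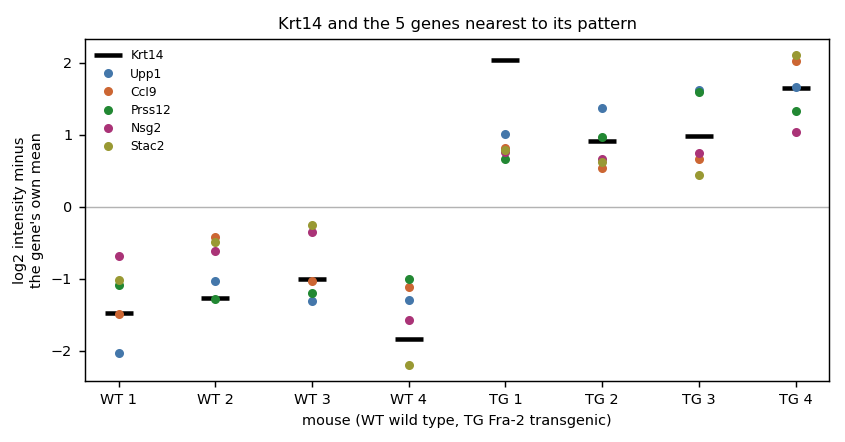
Log2 intensity minus the gene's own mean over the 8 mice (y axis) in each wild-type (WT) and Fra-2 transgenic (TG) mouse (x axis), for Krt14 (black bars) and the 5 genes at the smallest distance from it (points). Krt14 is highest in TG mouse 1, where the 5 other genes lie lower.

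The genes that anchor basal cells to the basement membrane held the second call. Itgb4, the integrin subunit that builds hemidesmosomes, had levels of 8.15, 8.39, 8.04 and 8.07 in WT mice 1 to 4 and of 9.15, 9.18, 9.15 and 8.89 in TG mice 1 to 4. The groups lay clearly apart, 1.91-fold higher in TG (log2 difference 0.93, SE 0.13, limma adjusted p = 0.0430). Leaving out any 1 mouse other than TG mouse 4 gave an adjusted p from 0.0675 to 0.176, and with every spot on the array tested it was 0.0501.

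Itga6, which pairs with Itgb4 in the laminin receptor of hemidesmosomes, had levels of 13.30 to 13.95 in WT and 14.33 to 14.81 in TG, 2.13-fold higher. Its log2 difference of 1.09 (SE 0.18) had a limma adjusted p of 0.0799 and is not called. That p passed under 6 of 19 alternatives, among them an offset of 16 before the log2 (0.0269) and leaving out WT mouse 4 (0.0368). It ran up to 0.261, without TG mouse 3, under the other 13. Plec, the linker of hemidesmosomes to keratin filaments, differed by 0.65 (SE 0.15, limma adjusted p = 0.210), and Cd151, a tetraspanin bound to laminin-binding integrins, by 0.30 (SE 0.11, limma adjusted p = 0.464). All 4 of these genes had TG values above all WT values.

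Of the 8 hemidesmosome and anchoring genes measured, 1 rose and 0 fell (limma). Groups did not overlap in 4, all higher in TG, where 3.99% of all genes were higher without overlap, and the median difference was 0.29. Without both mice numbered 4, 0 of 8 passed, where 9 of 20863 genes passed as higher and 8 as lower (limma). At an unadjusted p under 0.05 (limma), 4 of the 8 were higher, as were 1223 of all genes. Groups did not overlap in 5 of the 8, where 17.7% of all genes had no overlap. Col17a1, the transmembrane collagen of hemidesmosomes and a more selective basal cell gene, differed by -0.52 (SE 0.28), and the laminin chain genes Lama3 and Lamb3 by 0.11 and -0.08.

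These integrins, Plec and Cd151 are also made by endothelial and alveolar cells. Of 10 endothelial markers none passed (limma; 2 at an unadjusted p under 0.05, both higher). These were Emcn, endomucin, with a difference of 1.18 (SE 0.33, limma adjusted p = 0.315), and Tie1, a receptor kinase, with 0.57 (SE 0.18, limma adjusted p = 0.370), each higher in every TG mouse than in any WT mouse. Groups did not overlap in these 2 of the 10, where 3.99% of all genes were higher without overlap. The median difference of the 10 was 0.15. The summed intensity of the list was 95793 to 110791 in WT and 99027 to 121435 in TG, with 61.0% to 66.8% of it from Cldn5 and Vwf. The part of endothelial cells in the result was not tested.

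**Figure D5:**
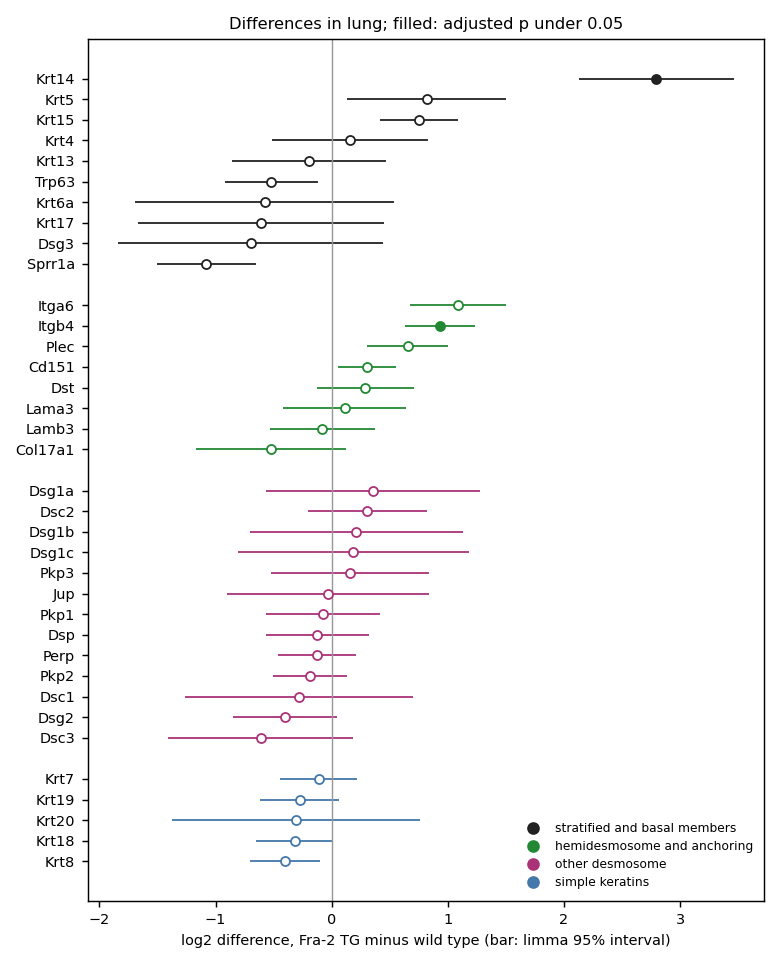
Log2 difference, Fra-2 TG minus wild type, with the limma 95% interval (x axis), for the 10 basal and squamous genes (black), hemidesmosome and anchoring genes (green), other desmosome genes (purple) and keratins of simple epithelium (blue), each on its own line (y axis); filled symbols have an adjusted p under 0.05. Krt14 at 2.79 and Itgb4 at 0.93 are the filled ones.

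No other list of epithelial genes held a call. Of 18 other basal cell genes 0 passed (limma; without adjustment 3 were higher and 1 lower at p under 0.05), with a median of 0.00078. Aqp3, a water and glycerol channel of basal cells, had levels of 5.80 to 6.02 in WT and of 7.27, 6.75, 6.69 and 8.28 in TG mice 1 to 4, without overlap, and a difference of 1.33 (SE 0.33, limma adjusted p = 0.246). The Notch ligand genes Jag2 and Dll1 differed by 0.80 (SE 0.15, limma adjusted p = 0.136) and 0.77 (SE 0.28, limma adjusted p = 0.468). Sfn, a 14-3-3 protein of stratified epithelium, differed by -0.74 (SE 0.22, limma adjusted p = 0.351). The nerve growth factor receptor gene Ngfr, a surface marker of airway basal cells, differed by 0.02 (SE 0.32).

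Among 13 other keratins of stratified epithelium 0 passed (limma; 0 at an unadjusted p under 0.05), and 5 lay under the floor on all 8 arrays. The 4 with the smallest p were Krt78 (0.36), Krt23 (-0.36), Krt1 (0.30) and Krt10 (0.25), each a log2 difference. Krt78 and Krt1 had both means under the floor. Krt1 and Krt10 form the pair of the upper epidermis, so the skin pair did not pass either.

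Of 13 other desmosome genes 0 passed (limma; 0 at an unadjusted p under 0.05), with a median difference of -0.07. Of these, 6 lay under the floor on all 8 arrays, and the 6 with a mean above it had a median of -0.13. Dsg2, the desmoglein of simple epithelia and heart, differed by -0.40 (SE 0.19) and the plakophilin gene Pkp2 by -0.19. Dsc3, the basal cell desmocollin, differed by -0.61 and Dsc2 by 0.31, each with both means under the floor.

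Of 26 other cornified envelope genes 0 passed (limma; 1 at an unadjusted p under 0.05, Sprr3, lower), and 15 lay under the floor on all 8 arrays. The sizes were 0.93 for Sprr2d and -0.62 for Sprr3, both under the floor, -0.30 for Ppl, a plakin, and 0.33 for Cstb, a protease inhibitor. Of the other Sprr genes measured, all but Sprr4 lay under the floor on all 8 arrays, too dim for a comparison with Sprr1a.

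The keratins of simple epithelium, which make up most of the keratin of lung, had negative differences in 5 of 5, with a median of -0.31, and 0 passed (limma; 1 at an unadjusted p under 0.05). Krt20, whose difference is that median, lay under the floor on all 8 arrays, so its sign cannot be read. The 4 with a mean above the floor had a median of -0.30. Krt8 had levels of 13.03 to 13.36 in WT and 12.67 to 12.91 in TG, without overlap (difference -0.40, SE 0.13, limma adjusted p = 0.409). Its partner Krt18 differed by -0.32 (SE 0.14), Krt19 by -0.28 and Krt7 by -0.11 (SE 0.14).

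Markers of the other cells and tissues a lung sample can hold were read beside these results, as summed linear intensity over each list. Of 8 markers of thymic epithelium, which also makes Krt14 and Krt5, 0 passed (limma; 0 at an unadjusted p under 0.05). The sums were 8239 to 12647 in WT and 10905 to 12656 in TG, but 93.3% to 96.8% of each was Ctsl, a protease that many cells make. Without Ctsl they were 400.8 to 554.3 in WT and 447.6 to 505.3 in TG. Foxn1 and Psmb11, which define that epithelium, lay under the floor in all 8 mice, with differences of -0.76 and -0.99. Of 8 thymocyte markers 0 passed (limma; 3 at an unadjusted p under 0.05, all higher, where 5.33% of all genes were). Their sum was higher in TG without overlap, 827 to 1412 in WT and 1504 to 1794 in TG. Cd1d1 and Cd8b1 made up 85.3% to 92.4% of it, and without both it was 107.1 to 121.4 in WT and 141.8 to 205.4 in TG. Of the genes left, only Dntt had a mean above the floor, so that smaller sum is otherwise of dim signals. Dntt, the enzyme that adds nucleotides to receptor genes in immature lymphocytes, differed by 1.24 (SE 0.24, limma adjusted p = 0.150) and Cd1d1 by 0.40. Themis differed by 0.65 with every WT value under the floor, a bound of at least 1.09-fold. Rag1, Rag2 and Ptcra had means under the floor in both groups. The part of such cells in the Krt14 result was not tested.

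Of 8 markers of myoepithelial and gland cells, some of which carry Krt14, 0 passed (limma; 1 at an unadjusted p under 0.05, lower), with sums of 24766 to 32976 in WT and 18813 to 26285 in TG. Of each sum, 58.2% to 79.5% came from Acta2 and Cnn1, which smooth muscle makes as well. Of 8 airway cartilage markers 0 passed (limma; 0 at an unadjusted p under 0.05), none had a mean above the floor, and the sums were 100.2 to 133.8 in WT and 108.4 to 125.9 in TG. Of 8 skin and hair markers 0 passed (limma; 0 at an unadjusted p under 0.05), with 116.0 to 139.7 and 118.1 to 175.8. Only 1 of them had a mean above the floor, and 6 lay under it on all 8 arrays. The sums of the lists for trachea-like cartilage and skin overlapped between the groups, but are too dim for a comparison of such tissue.

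Of 6 club cell markers 0 passed (limma; 0 at an unadjusted p under 0.05; sums 182564 to 234137 in WT and 180803 to 207069 in TG). Scgb1a1 and Cyp2f2, 56.0% to 72.5% of these sums, stood at the top of the scale, the first on all 8 arrays and the second on 7, so their spots could not show a rise. Of 8 ciliated cell markers 0 passed (limma; 1 at an unadjusted p under 0.05, lower; 20993 to 33668 and 16826 to 23557). Of 10 alveolar epithelial markers 0 passed (limma; 0 at an unadjusted p under 0.05; 330439 to 351523 and 284232 to 345955), and Sftpc was at the top of the scale on all 8 arrays. Of 7 mesothelial markers 0 passed (limma; 2 at an unadjusted p under 0.05, both higher; 20182 to 22883 and 20258 to 25423, of which 32.8% to 63.4% was Krt19), among them Msln, mesothelin, with a difference of 0.71 (SE 0.19, limma adjusted p = 0.276).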

How the data were processed

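The authors deposited linear normalised intensity, 1 value for each of 62976 spots, from 8 single-colour (Cy5) Agilent arrays. R 2.15.1 with limma 3.14.4 was used, per the submitters' processing notes. The background correction and the normalisation method were not given in the sources used here. All arrays share 1 distribution (median 26.6), and no flags for background or saturation were used. Spots were named by the platform annotation (31465 with 1 symbol, 31511 unnamed here), updated through RefSeq accessions of GRCm38.p6 (29050 spots matched, 2933 symbols replaced). The spot with the highest mean over 8 arrays stood for each gene.

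The log2 intensity of 20863 genes was fitted with limma 3.58.1 (lmFit, eBayes) in R 4.3.3, group as the only term, Benjamini-Hochberg adjustment over all genes and a threshold of 0.05. Every spot of the 10 genes was also tested in a fit of all named spots. A fold is a bound where at least 2 of 4 values of the lower group lay under the floor, and none is given where both means did. Such a bound allows for the floor, not for the spread between mice. The gene test was checked on simulated data. Members and lists were chosen with earlier results of these data known; the endothelial list was added after the values were seen. Named genes were the 10 members, Fosl2, each epithelial list's called genes and its 4 smallest p-values, and the 5 genes nearest to Krt14; others (Krt16, Ngfr, Col17a1, the marker genes and further neighbours) were picked after their values were seen. The labels do not say that mouse numbers pair the samples, so the main fit leaves them out. Deviations from group means correlated at 0.12, -0.04, 0.14 and 0.04 for mice 1 to 4, which cannot settle whether numbers pair samples. Alternatives were offsets of 16 and 32, other scalings, a filter on dim genes, other spot rules, other variance models, a replicate block and mice left out. Plots came from matplotlib 3.10.9 under Python 3.11.15. The number of arrays limits the precision.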

Additional observations from a re-analysis of the deposited data

Results flagged for a closer look

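Among the genes and spots named, 6 groups of 106 had 1 mouse far from the other 3 of its group, where chance alone marks about 1 in 20. In TG mouse 4, Itgb4 stood at 8.89 against 9.15 to 9.18 in the other TG mice, Krt23 at 10.55 against 11.21 to 11.34, and Ppl at 10.16 against 10.65 to 10.72. Under the floor for dim signals, the third Trp63 spot stood at 3.20 in WT mouse 2 against 3.96 to 4.05 in the other WT mice. Sprr2d stood at 1.20 in WT mouse 2 against 2.95 to 3.30, and Psmb11 at 2.89 in WT mouse 3 against 3.90 to 4.04.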

How the results depend on the processing

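Krt14 kept a positive difference under all 19 alternatives, from 1.90 with an offset of 32 to 2.95, and 2.58 to 2.95 with 1 mouse left out. It no longer passed with the mouse number as a replicate block (difference 2.79, adjusted p = 0.142), without both mice numbered 4 (2.56) or without WT mouse 2. The block left 5 genes past the threshold, none of them among the 10. Each mouse was also compared with the 4 mice of the other group, and 4 of 8 correlated best with their own number. The count of 1 among the 10 genes became 2 with dim genes filtered, 0 with the block, 0 without both mice numbered 4, and 0 to 2 with 1 mouse left out. The gene added by the filter, Sprr1a, was kept by it through its WT values alone. The 45 genes past the threshold became 80 and 88 with offsets of 16 and 32, 73 with dim genes filtered, 118 with a trended robust variance, 100 with array weights, 17 without both mice numbered 4, and 17 to 38 with 1 mouse left out. Signs turned in these uncalled genes: with the mean of all spots, Krt13 (0.068), Fosl2 (0.85) and Dsg2 (0.055); with array weights, Krt4 (-0.037), Krt13 (0.11) and Krt16 (-0.038); without both mice numbered 4, Krt4 (-0.085), Krt13 (0.19) and Krt16 (-0.080). With 1 mouse left out the range was -0.13 to 0.36 for Krt4, -0.36 to 0.082 for Krt13 and -0.072 to 0.23 for Krt16. Of 186 refits of the 10 genes, 174 kept direction and side of the threshold, but most of these were of uncalled genes. Krt14, the only call among the 10, passed in 16 of 19. The cause of these changes was not tested. Of the 10 genes, 4 lie under the floor on all 8 arrays and 4 on both sides of it, where signal over background limits what can be seen.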
